A study of Mus musculus with 22 samples.

Results

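A set of 10 genes of muscle-type energy metabolism was followed in brown adipose tissue (BAT) of mice with and without the RNA-binding protein CPEB2. They were chosen by name: Pygm, Phkg1 and Gys1 of glycogen metabolism, Pfkm, Aldoa, Pgam2, Eno3 and Ldha of glycolysis, Ampd1 of the purine nucleotide cycle, and the oxygen carrier Mb. All 10 of the 10 members were found among the 55487 gene identifiers of the count tables. The filter on low counts kept 10 of them among the 17869 genes tested in untreated mice and 9 among the 18899 genes tested in virus-injected mice, where Ampd1 was left out.

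Glycogen phosphorylase releases glucose 1-phosphate from glycogen and phosphorylase kinase switches it on, while glycogen synthase runs the opposite way. Glycolysis then carries the sugar through phosphofructokinase, aldolase, phosphoglycerate mutase and enolase to pyruvate, which lactate dehydrogenase turns into lactate. Most of these steps have several genes, one of which is the main form of skeletal muscle fibres. Brown fat oxidises fatty acids and glucose to make heat, and brown adipocytes share an embryonic precursor with skeletal muscle, which lies close to the interscapular fat pad.

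Untreated tissue, meaning without virus, came from 5 WT and 5 KO mice aged 21 to 25 weeks. The study states that these mice were kept without food for some hours before collection. It states no such step for the virus-injected mice. In the AAV cohort, WT and KO mice received adeno-associated virus for GFP or for PRDM16 into the interscapular BAT at 16 weeks, and the tissue was taken 9 weeks later, at 25 weeks, from 3 mice of each of 4 groups. These are called WT + AAV-GFP and WT + AAV-PRDM16 for WT mice, with KO + AAV-GFP and likewise KO + AAV-PRDM16 for the knockout. The knockout was global, on a C57BL/6 background with WT mice from the same heterozygous crosses, so the tissue of origin of a difference cannot be told from the genotype, and the labels call all mice male. Each library was made from the BAT of 1 mouse and its reads were counted per gene. No group was left without virus in the AAV cohort, so the virus itself was common to all its mice.

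Library totals ran from 55320927 to 162721202 counts. CPM are counts per 1e+06 counts of the library size after TMM scaling (trimmed mean of M-values), so they are not plain shares of the library total. Cpeb2 lay between 7.69 and 14.3 CPM in the 5 WT libraries, at 11.7 CPM in the library labelled KO mouse 1 and between 2.10 and 5.78 CPM in the other 4 labelled KO. In the AAV cohort it lay between 10.5 and 14.0 CPM in WT and between 4.33 and 5.55 CPM in KO. Y-linked transcripts summed to under 10 CPM in 6 of the 10 untreated libraries (WT mice 3 and 5, KO mice 1, 3, 4 and 5) and in 0 of the 12 AAV libraries, against the label male. Xist was at 104 to 305 CPM in these 6 libraries, which thus look female. In the other untreated libraries it was at 0.0310 to 14.0 CPM, highest in WT mouse 4, which also had Y-linked transcripts (116 CPM). The 6 are split unevenly over WT and KO, so sex and genotype are partly mixed in the untreated comparison. Brown fat markers summed to between 8583 and 21894 CPM. Transcripts of 20 skeletal muscle contractile genes, such as Myh4, Acta1 and Ckm, summed to 4155 CPM in WT mouse 3, 7648 in KO mouse 1, 8502 in KO mouse 2 and 1347 in KO mouse 5, and to between 46.5 and 249.7 CPM in the other 6 untreated libraries. In the AAV cohort the sum lay between 29.4 and 156 CPM, of which Myl1 made a median of 93.0%. The 10 heart markers summed to between 4.96 and 31.2 CPM over all libraries, and 5 of them passed the filter in untreated mice. In bulk tissue, fewer cells of a type and less RNA per cell cannot be told apart.

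Compared per length, the members differed widely in level in BAT. In RPKM, which is CPM divided by the length of the union of exons in kilobases, untreated libraries had a mean of 1131 ± 617 for Aldoa and 317 ± 121 for Ldha (SD, n = 10). Mb at 53.4 ± 81.7, Gys1 at 37.8 ± 12.6, Eno3 at 26.7 ± 34.5, Pfkm at 25.2 ± 10.5, Pgam2 at 17.8 ± 27.7 and Pygm at 14.96 ± 20.0 RPKM followed and did not differ from their neighbours beyond these SDs. Ampd1 at 1.86 ± 2.75 and Phkg1 at 0.798 ± 0.697 RPKM were lowest. Only the means are ordered in this way, because for Mb, Eno3, Pgam2, Pygm and Ampd1 the SD exceeded the mean.

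In the AAV cohort, whose table was scaled on its own, the first places were the same and the muscle-restricted members lay far lower. Aldoa averaged 762 ± 184 RPKM, Ldha 212 ± 37.3, Gys1 39.0 ± 3.80 and Pfkm 21.96 ± 2.58 (SD, n = 12), each apart from the next by more than both SDs. Eno3 averaged 2.41 ± 0.491, Mb 0.769 ± 0.486, Pygm 0.621 ± 0.258 and Phkg1 0.159 ± 0.0910 RPKM, where Mb and Pygm overlapped. Pgam2 and Ampd1 had 0 counts in 6 and 10 of the 12 libraries. All 10 members kept their place in both orders with the longest transcript in place of the union of exons.

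**Figure D1:**
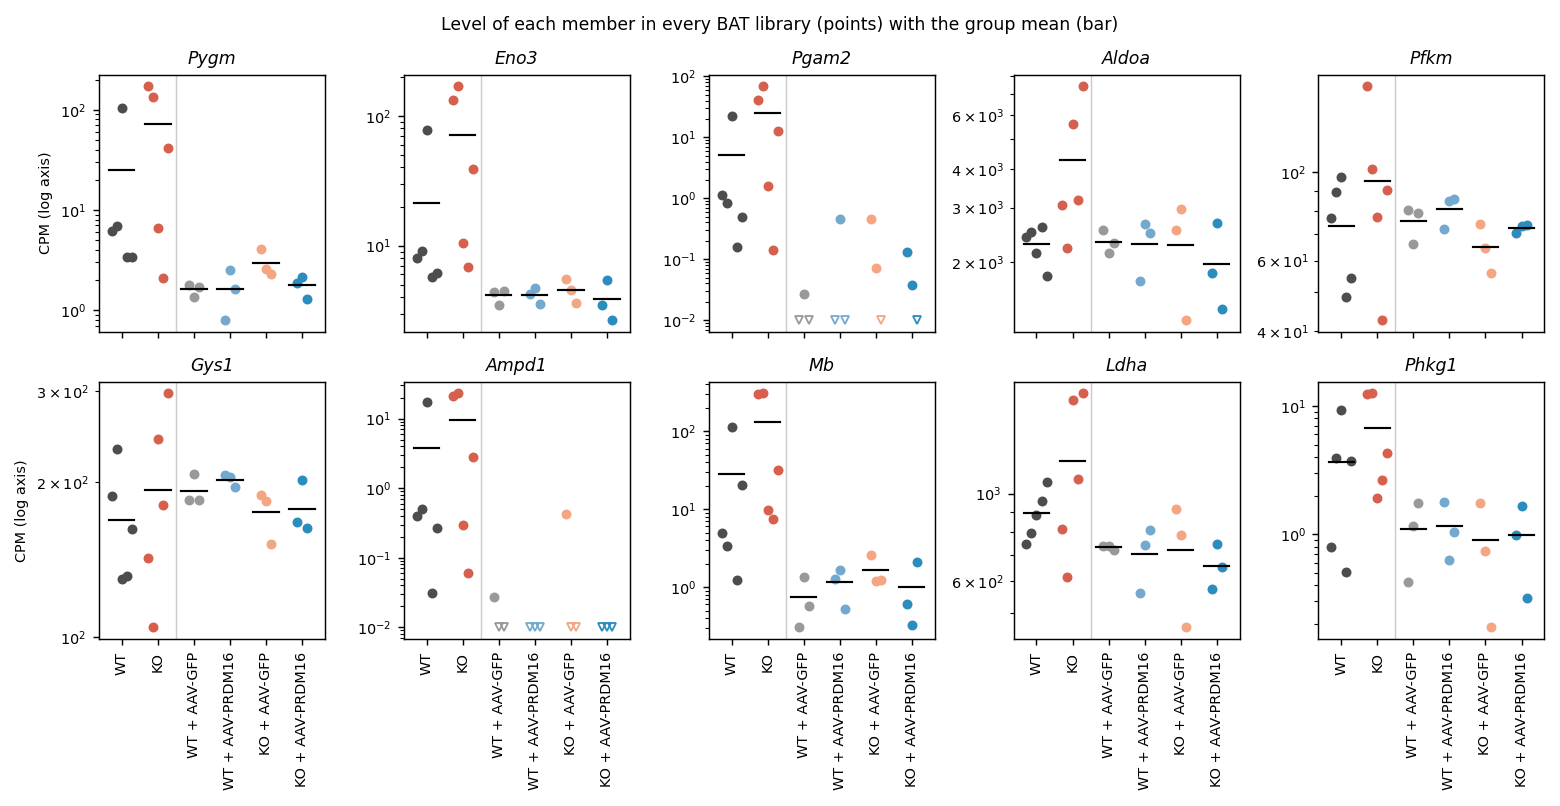
Level of the 10 members in every library, in CPM on a log axis, for the 2 untreated groups (left of the line) and the 4 AAV groups (right). Filled points are mice, open triangles at 0.01 are libraries with 0 counts, and bars are group means where no library is at 0. Pygm, Eno3, Pgam2, Ampd1 and Mb are high in WT mouse 3 and KO mice 1, 2 and 5, while Aldoa, Gys1 and Ldha are not ordered that way.

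Within each enzyme family, these levels gave the share that the muscle form made of the summed RPKM of its isoforms. Gys1, the muscle and general glycogen synthase, made between 45.5% and 81.2% beside the liver form Gys2, and Ldha between 40.3% and 54.9% beside Ldhb. In the AAV cohort alone the shares were 57.9% to 74.8% for Gys1 and 40.3% to 54.9% for Ldha. Pfkm made between 12.1% and 40.0% of the phosphofructokinase transcripts, of which Pfkl was the main one.

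The other muscle forms were minor in most libraries. Pygm made 1.07% to 53.0% of the glycogen phosphorylase transcripts in untreated mice, with a median of 2.12%, and 0.324% to 1.26% in the AAV cohort, where the liver form Pygl and the brain form Pygb made the rest. Eno3 had a median share of 1.49% beside Eno1 in untreated mice and reached 29.8% in KO mouse 2. Pgam2 had a median share of 0.673% beside Pgam1 and reached 41.8% in the same mouse. Mb, beside the globins Cygb and Ngb, ranged from 8.82% to 97.9% in untreated mice and from 4.26% to 25.9% in the AAV cohort.

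**Figure D2:**
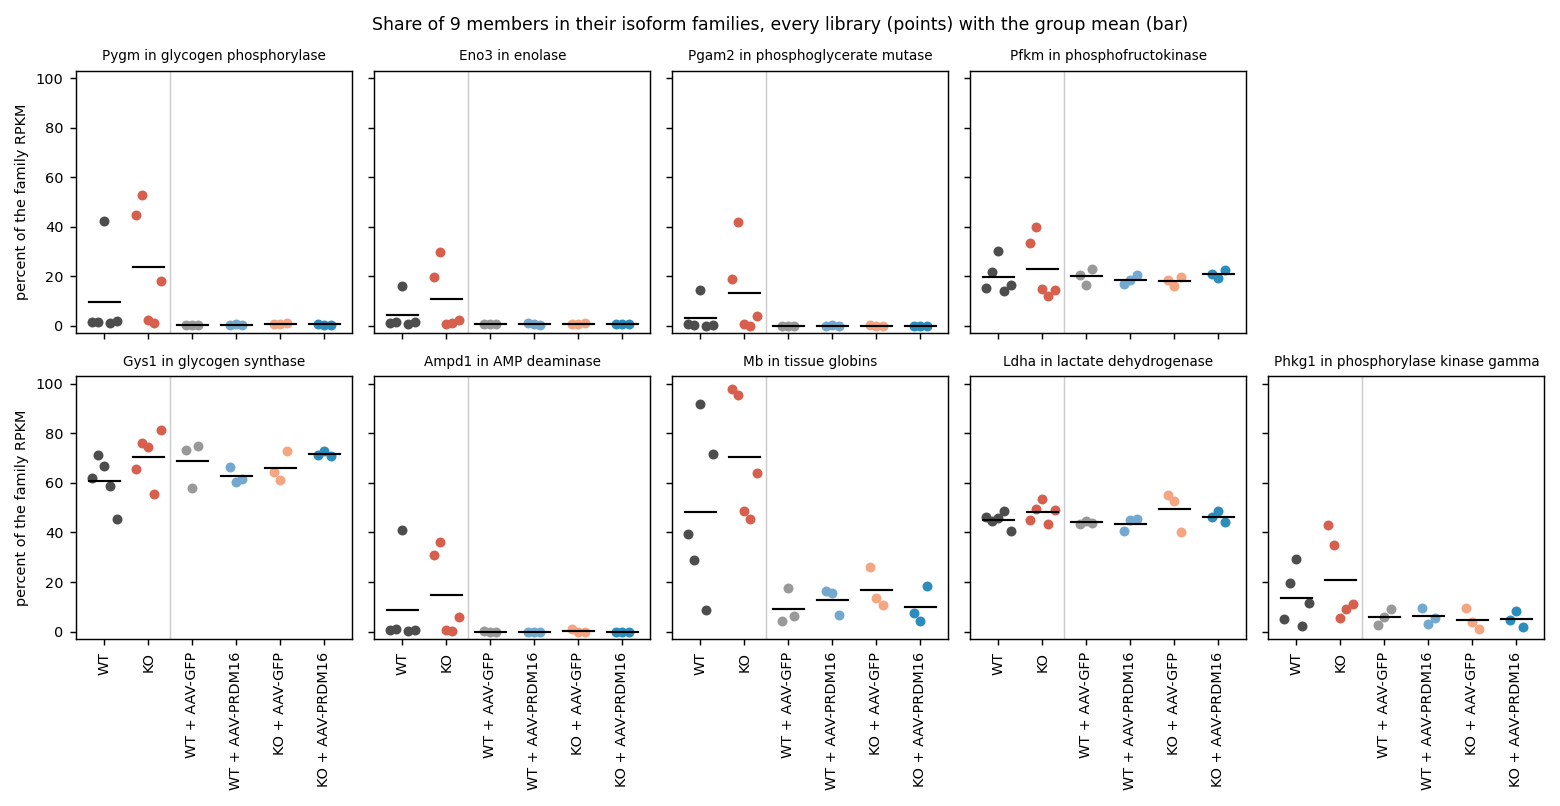
Share of 9 members in the summed RPKM of their isoform family (vertical axis, percent), for each library by group. Points are mice and bars group means. Gys1 and Ldha keep a share of at least 40.3% in every library, while Pygm, Eno3, Pgam2 and Ampd1 are highest in WT mouse 3 and KO mice 1 and 2 of the untreated cohort and near 0 in most other libraries.

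The untreated comparison asked whether loss of CPEB2 altered these transcripts in BAT. Pygm (chr19:6384399-6398459 of GRCm38, plus strand), the muscle glycogen phosphorylase, was at 6.14, 6.99, 104, 3.41 and 3.41 CPM in WT mice 1 to 5 and at 172, 135, 6.60, 2.08 and 41.9 CPM in the libraries labelled KO mice 1 to 5. WT mouse 3 and KO mice 1, 2 and 5 were high and the groups overlapped. The log2 fold change (log2FC) was 1.53 with a standard error (SE) of 1.196 (edgeR quasi-likelihood test, adjusted p = 0.483). This test gives no SE itself, so each SE here is the absolute log2FC divided by the square root of the F statistic of the test.

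Phkg1 (chr5:129863421-129898549, minus strand), the muscle catalytic subunit of phosphorylase kinase, was at 0.797, 3.95, 9.24, 0.506 and 3.71 CPM in WT and at 12.4, 12.5, 1.92, 2.64 and 4.26 CPM in KO. The same WT mouse was highest in its group, KO mice 1 and 2 were above all others, and log2FC was 0.90 with an SE of 0.75 (edgeR adjusted p = 0.508). Its exons overlap those of Sumf2 on the opposite strand over 630 bases, so its reads are uncertain. Gys1 (chr7:45434844-45456619, plus strand) was at 188, 232, 130, 131 and 162 CPM in WT and at 143, 105, 242, 180.1 and 297 CPM in KO. In TMM-scaled CPM, though not in plain shares of the library totals, KO mouse 2 was the lowest library. KO mice 3 and 5 were the highest, and log2FC was 0.20 with an SE of 0.31 (edgeR adjusted p = 0.730).

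Of the glycolytic members, Pgam2 (chr11:5801640-5803733, minus strand), the muscle phosphoglycerate mutase, was at 1.12, 0.838, 22.7, 0.156 and 0.498 CPM in WT and at 40.9, 68.8, 1.60, 0.139 and 12.5 CPM in KO. Eno3 (chr11:70657202-70662513, plus strand), the muscle enolase, was at 8.07, 9.07, 77.4, 5.73 and 6.13 CPM in WT and at 132, 169, 10.4, 6.87 and 38.9 CPM in KO. Both were high in the same 4 libraries as Pygm, and the groups overlapped. Their log2FC was 2.30 with an SE of 1.45 and 1.75 with an SE of 0.97, respectively (edgeR adjusted p = 0.398 and 0.356).

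Aldoa (chr7:126795234-126800751, minus strand) took another course. It was at 2407, 2508, 2137, 2591 and 1801 CPM in WT and at 3058, 2222, 5592, 3173 and 7425 CPM in KO. In TMM-scaled CPM, KO mouse 2 alone lay inside the WT range, and the high libraries were KO mice 3 and 5, not those with the most contractile transcripts. This overlap depends on the scaling. KO mouse 2 had 222017 Aldoa counts of a total of 67895820. WT mouse 4, with the highest plain share in WT, had 332560 of 119958903. In plain shares every KO library thus lay above every WT library. The log2FC of 0.91 had an SE of 0.34, the smallest unadjusted p of the 10 members (edgeR adjusted p = 0.305).

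Ldha (chr7:46841475-46855627, plus strand) was at 748, 795, 882, 960 and 1071 CPM in WT and at 811, 616, 1722, 1087 and 1792 CPM in KO. The same KO mice 3 and 5 were high, and log2FC was 0.44 with an SE of 0.32 (edgeR adjusted p = 0.456). Pfkm (chr15:98092589-98132451, plus strand), the muscle phosphofructokinase, was at 76.6, 89.0, 97.5, 48.6 and 54.3 CPM in WT and at 164, 102, 77.3, 42.6 and 90.3 CPM in KO. KO mouse 1 was highest and KO mouse 4 lowest, and log2FC was 0.38 with an SE of 0.34 (edgeR adjusted p = 0.534).

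Ampd1 (chr3:103074014-103099720, plus strand), the muscle AMP deaminase, was at 0.394, 0.497, 17.5, 0.0312 and 0.268 CPM in WT and at 21.2, 23.0, 0.300, 0.0596 and 2.83 CPM in KO. WT mouse 3 and KO mice 1 and 2 were high, the groups overlapped, and log2FC was 1.35 with an SE of 1.55 (edgeR adjusted p = 0.635). Mb (chr15:77015487-77050670, minus strand), myoglobin, was at 4.98, 3.37, 113, 1.23 and 20.7 CPM in WT and at 298, 306, 9.90, 7.49 and 32.2 CPM in KO. KO mice 1 and 2 were high in their group and WT mouse 3 in the other. The log2FC was 2.19 with an SE of 1.28 (edgeR adjusted p = 0.375), and 412 bases of its exons are shared with the antisense gene Gm49540.

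**Figure D3:**
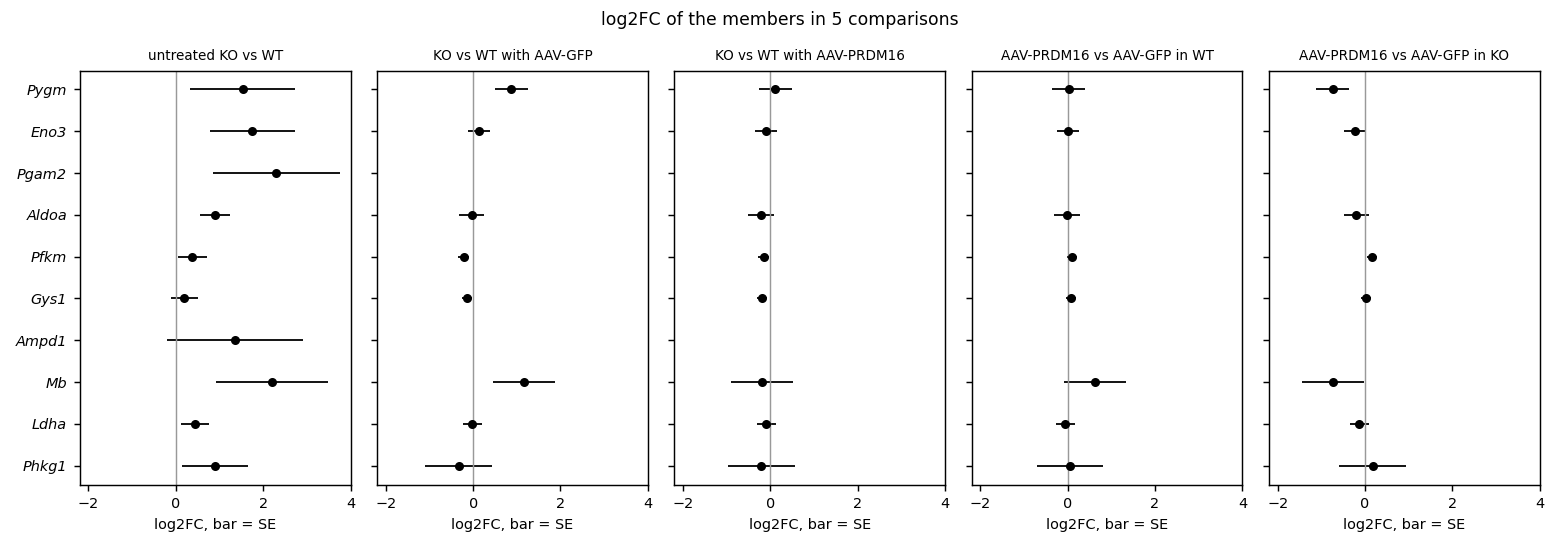
log2FC of the members (points, horizontal axis) with SE (bars) from the edgeR fits, one panel per comparison. Ampd1, not tested in the AAV cohort, and Pgam2, with 0 counts in 6 AAV libraries, are not drawn there. The untreated values all lie to the right of 0, from 0.20 to 2.30, with SE of up to 1.55.

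At a false discovery rate (FDR) of 0.05, 0 of 10 members were called in untreated mice by edgeR and 0 by DESeq2, where 0% of all tested genes were called by edgeR. One member, Aldoa, had an unadjusted p under 0.05, where 15.9% of all genes had one. All 10 log2FC were above 0, where 51.8% of all genes were, and their median was 1.13 against 0.04 over all genes tested. In TMM-scaled CPM no member had groups without overlap, with higher values in every KO library than in every WT library for 0.492% of all genes. This share was not computed for plain shares of the library totals, in which Aldoa did not overlap.

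By the looser rule that the study used, at least 2-fold and an FDR of 0.5, 4 of 10 members were higher in KO (Pygm, Eno3, Pgam2 and Mb), where 6.04% of all genes were. The count was 0 without WT mouse 1, without WT mouse 2 or without KO mouse 5, 2 without WT mouse 5 or without KO mouse 2, and 6 without WT mouse 3. It was also 0 in a fit with a term for whether Y-linked transcripts were present. Without KO mouse 1, whose Cpeb2 lay in the WT range, the count stayed at 4. Aldoa (log2FC 1.01, edgeR adjusted p = 0.168) then stood in place of Pygm. With WT mouse 3 left out, log2FC was 3.84 for Pygm, 3.30 for Eno3, 5.24 for Pgam2, 4.98 for Ampd1, 4.11 for Mb and 1.59 for Phkg1. With KO mouse 2 left out it was 1.14 for Eno3, 1.45 for Pgam2, 0.69 for Ampd1, 1.58 for Mb and 0.55 for Phkg1, and with KO mouse 1 left out 0.91 for Pygm and 0.093 for Pfkm. With KO mouse 5 left out it was 0.62 for Aldoa, 0.25 for Ldha and -0.012 for Gys1. The skeletal muscle contractile list moved with these 4 members, with 20 of 20 log2FC above 0, a median of 1.94, 11 past the looser rule and 0 at an FDR of 0.05. The part of these transcripts in the result was not tested.

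Across the 10 untreated libraries, 7 members were related to the mean log2 CPM of the contractile list (permutation test, 100000 resamples, two-sided, adjusted over the 20 relations of 10 members in 2 cohorts). Pgam2 had r = 0.99 and rho = 0.99 (permutation adjusted p = 0.0001 for r), Ampd1 r = 0.99 and rho = 0.95 (0.00025), Pygm r = 0.98 and rho = 0.93 (also 0.0001, the smallest adjusted value reached) and Eno3 r = 0.96 and rho = 0.93 (0.00025). Without KO mice 1 and 2, the libraries farthest from the median, their r was 0.98, 0.97, 0.96 and 0.91. These are the 4 members with the lowest median share of their family.

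Pfkm had r = 0.89 and rho = 0.94 (permutation adjusted p = 0.00217), with a slope of only 0.15 on the log2 scale against 0.96 for Pgam2. Mb had r = 0.90 and rho = 0.81 (permutation adjusted p = 0.00237) and Phkg1 r = 0.78 and rho = 0.77 (0.0204). Without KO mice 1 and 2, r was 0.87 for Pfkm and still past the threshold, and 0.78 for Mb and 0.59 for Phkg1, which were not (permutation adjusted p = 0.0832 and 0.264). Aldoa (r = -0.01, rho = -0.14), Gys1 (r = -0.35, rho = -0.30) and Ldha (r = -0.30, rho = -0.44) did not pass in either measure.

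The libraries were not spread evenly along the list, since 4 lay above 4 log2 CPM and 6 below. Among those 6, Pgam2 had r = 0.95 and Pfkm r = 0.88 and both passed (permutation adjusted p = 0.0493 for each). Pygm had r = 0.90 (permutation adjusted p = 0.0550), Ampd1 0.89, Eno3 0.62, Mb 0.25 and Phkg1 0.06. The split at 4 was chosen after seeing the data. Without WT mice 1 and 2 the same 7 members passed.

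**Figure D4:**
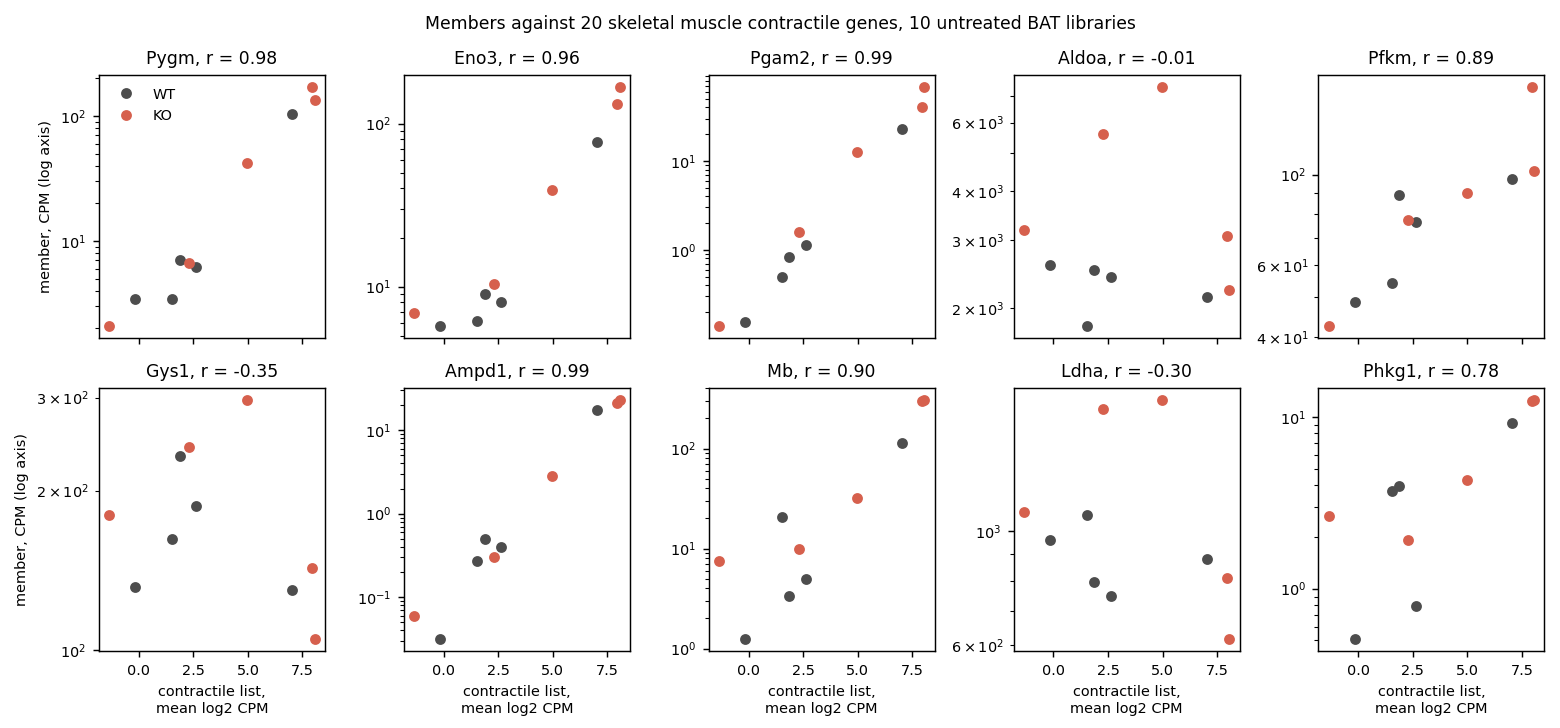
Level of each member in CPM (vertical, log axis) against the mean log2 CPM of 20 contractile genes (horizontal) in the 10 untreated libraries, with Pearson r of the log2 values. Points are mice, dark grey for WT and red for KO. Pgam2, Ampd1, Pygm and Eno3 increase with the list (r of 0.96 to 0.99), and Aldoa, Gys1 and Ldha do not.

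As a description of likeness, the genes with the most similar log2 CPM over the 10 untreated libraries were other muscle genes for most of these members. They were Tcap, Tnnc2 and Casq1 for Pgam2 (r of 0.995 to 0.996), Casq1, Hfe2 and Eno3 for Pygm (0.984 to 0.985), Tpm2, Ankrd2 and Asb2 for Eno3 (0.987 to 0.992) and Plcd4 and Nrap for Ampd1 (0.993 and 0.991). Tcap and Nrap encode sarcomere proteins and Casq1 the calcium store of the sarcoplasmic reticulum. Mb was most like Sypl2, Pdlim3 and Cacng1, Pfkm most like Kcna7, Mylk4 and Xirp2, and Phkg1 most like Scn4b, Cacng1 and Kcnj12.

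The remaining 3 members had other neighbours. Derl1 and Copz2 were among those most like Ldha (r of 0.991 and 0.987), Gys1 was most like Vars2, Tbc1d13 and Pcx (0.976 to 0.983) and Aldoa most like Adrm1, Dcakd and Strada (0.968 to 0.972). Over the 12 AAV libraries, Aldoa was closest to the glycolytic genes Gpi1 (r = 0.984) and Eno1 (0.984), Ldha to the glycogen branching enzyme gene Gbe1 (0.965), and Pgam2 to Myh1 (0.943) and Ckm (0.893). All libraries of a cohort share their scaling, so these values describe co-variation across mice and carry no test.

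The promoters of 2 members that followed the contractile list and 2 that did not are shown for comparison, as the 250 bases before the RefSeq start in GRCm38.p6, 5′ to 3′ on the strand of the gene. Capitals mark the E-box CAGCTG, a word bound by muscle regulatory factors, and the word ACGTG of the hypoxia response element, on either strand, so that CACGTG holds ACGTG once on each strand. The windows are chr19:6384158-6384407 (Pygm, plus), chr11:5803797-5804046 (Pgam2, minus), chr7:45434589-45434838 (Gys1, plus) and chr7:46845554-46845803 (Ldha, plus).
Pygm: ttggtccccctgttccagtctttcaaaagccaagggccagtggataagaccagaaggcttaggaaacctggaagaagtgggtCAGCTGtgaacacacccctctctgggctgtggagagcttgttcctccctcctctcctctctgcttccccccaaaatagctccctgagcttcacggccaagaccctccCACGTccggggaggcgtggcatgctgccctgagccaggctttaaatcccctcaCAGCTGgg
Pgam2: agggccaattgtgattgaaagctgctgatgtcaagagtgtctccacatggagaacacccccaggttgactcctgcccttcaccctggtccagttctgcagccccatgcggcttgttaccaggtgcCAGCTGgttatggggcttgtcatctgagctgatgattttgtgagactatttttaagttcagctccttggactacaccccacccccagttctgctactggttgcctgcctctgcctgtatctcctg
Gys1: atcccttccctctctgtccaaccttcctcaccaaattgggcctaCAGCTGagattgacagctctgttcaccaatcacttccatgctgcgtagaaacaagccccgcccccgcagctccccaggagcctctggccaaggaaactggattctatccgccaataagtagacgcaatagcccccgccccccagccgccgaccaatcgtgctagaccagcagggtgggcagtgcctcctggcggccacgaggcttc
Ldha: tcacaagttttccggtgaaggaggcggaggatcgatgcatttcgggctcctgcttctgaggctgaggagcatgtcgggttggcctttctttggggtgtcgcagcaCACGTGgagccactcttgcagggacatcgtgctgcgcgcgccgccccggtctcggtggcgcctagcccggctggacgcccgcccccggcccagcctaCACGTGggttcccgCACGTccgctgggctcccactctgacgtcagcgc

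In these windows Pygm held CAGCTG beginning 168 and 8 bases before the start, Pgam2 once at 125 bases and Gys1 once at 206 bases, and Ldha held none. ACGTG began 61 bases before the start in Pygm and 145, 48 and 34 bases before it in Ldha, and was in neither of the other windows. Over the 17 windows of 300 bases that RefSeq gave for 9 of the 10 members, CAGCTG was in 7 windows of 6 members, where 16.3% of 32851 windows held it, and ACGTG in 6 windows of 4 members, where 19.6% held it. Some windows of a gene overlap, so 1 CAGCTG of Mb and 1 ACGTG of Aldoa were each counted in 2 windows. Members also differ in their number of windows, so the counts per member cannot be set against the shares per window. Enrichment was not tested. A strict word of the MEF2 site (CTA, 4 letters A or T, TAG) was also looked for and was in 0 of the 17 windows, where 0.557% held it. Wider forms of the site were not looked for, so the absence of MEF2 sites is not shown. The Pgam2 window above holds ctatttttaa, which differs from the strict word only in its last letter. Both groups of members thus held CAGCTG, and a match is a run of letters, not a measured site.

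The isoforms of the same enzymes and the rest of the pathway were read against the members in untreated mice. Of 17 sister isoforms, 14 were tested, 0 were called at an FDR of 0.05 and 10 had a log2FC above 0, with a median of 0.25. Past the looser rule were Aldoc (log2FC 1.74, SE 0.59, edgeR adjusted p = 0.305) and Eno2 (1.60, SE 0.74, adjusted p = 0.314), the neuronal forms of aldolase and enolase, both at a mean of under 4 CPM. The main forms of BAT had log2FC of 0.67 for Eno1, 0.28 for Pgam1, 0.20 for Pfkl, 0.22 for Ldhb, -0.06 for Pygb and -0.69 for Pygl. Pygl, the phosphorylase with the highest level here, thus had the opposite sign to Pygm.

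Of 31 other glycolysis and glycogen genes, all were tested, 0 were called at an FDR of 0.05, 15 had a log2FC above 0 and the median was -0.06. Past the looser rule, Gapdh (log2FC 1.48, edgeR adjusted p = 0.305) and Hk3 (1.08, adjusted p = 0.410) were higher in KO. Pfkfb2 (-1.24), the glycogen branching enzyme Gbe1 (-1.001) and the phosphatase subunit Ppp1r3b (-1.03) were lower (edgeR adjusted p of 0.305 to 0.309), and these 5 names and the pair Aldoc and Eno2 were chosen after their values were seen. All 7 lost this call without WT mouse 1, without WT mouse 2, without KO mouse 5 or with the term for Y-linked transcripts (edgeR adjusted p of 0.568 to 0.697), and without KO mouse 5 log2FC was 0.80 for Aldoc and 0.70 for Eno2. Hk3 lost it also without WT mouse 5, KO mouse 1 or KO mouse 2, Gbe1 also without KO mouse 2 or KO mouse 4, and Ppp1r3b also without KO mouse 2. With DESeq2 or with other scaling in edgeR, log2FC was -0.96 for Gbe1 and -0.98 for Ppp1r3b, short of 2-fold. DESeq2 gave no adjusted p for Aldoc and Hk3. With the replicate number as a block, Gbe1 (-0.95), Ppp1r3b (-0.89) and Hk3 (0.99) also fell short of 2-fold. The 6 most abundant genes of the list, Pkm, Gpi1, Pfkfb3, Pgk1, Hk2 and Tpi1, had log2FC between -0.46 and 0.74. Transcripts of Gapdh, Aldoa, Ldha, Eno1 and Pgam1 have processed pseudogenes, between which the counting could split reads.

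In the AAV cohort the question was whether PRDM16 altered the members in WT or KO tissue, and the genotypes were also compared within each virus. The 4 comparisons share groups pairwise, so they are not independent of each other. Prdm16 itself was at 23.9 to 40.2 CPM in the 6 AAV-GFP libraries and at 45.9 to 128 CPM in the 6 AAV-PRDM16 libraries, with a log2FC of 1.52 in WT and 1.47 in KO (edgeR adjusted p = 0.459 and 0.307). The library labelled WT + AAV-PRDM16 mouse 3 was lowest of the latter, at 45.9 CPM against 122 and 119 CPM in its group. Pygm was at 1.78, 1.35 and 1.71 CPM in WT + AAV-GFP mice 1 to 3 and 0.795, 2.51 and 1.61 CPM in those given AAV-PRDM16. In KO mice it was at 4.07, 2.56 and 2.29 CPM with AAV-GFP and 1.87, 2.13 and 1.30 CPM with AAV-PRDM16. All KO + AAV-GFP libraries lay above all WT + AAV-GFP and all KO + AAV-PRDM16 libraries.

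The log2FC of Pygm was 0.88 with an SE of 0.37 for KO against WT with AAV-GFP (edgeR adjusted p = 0.511) and -0.74 with an SE of 0.37 for AAV-PRDM16 against AAV-GFP in KO (edgeR adjusted p = 0.893). It was 0.11 for KO against WT with AAV-PRDM16 and 0.02 for the virus comparison in WT (edgeR adjusted p = 0.937 and 0.997). The interaction of genotype and virus was -0.76 with an SE of 0.53 (edgeR adjusted p = 0.9998). In KO + AAV-GFP mouse 1, which had the highest value, the contractile list summed to 156 CPM, against 34.4 and 34.5 CPM in mice 3 and 2 of the group, and without it the first 2 values were 0.59 and -0.45. Without it and WT + AAV-PRDM16 mouse 2 the interaction was -0.023. The part of these transcripts was not tested.

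Mb in WT mice was at 0.305, 1.34 and 0.579 CPM with AAV-GFP and 1.29, 1.64 and 0.520 CPM with AAV-PRDM16, and in KO mice at 2.61, 1.19 and 1.24 CPM and at 0.605, 0.324 and 2.12 CPM. The groups overlapped in each of the 4 comparisons. Pgam2 had 0, 4 and 0 counts with AAV-GFP and 0, 42 and 0 with AAV-PRDM16 in WT mice, and 31, 8 and 0 and 13, 4 and 0 in KO mice. Its 2 highest counts were in WT + AAV-PRDM16 mouse 2 and KO + AAV-GFP mouse 1, the 2 libraries with the most contractile transcripts (69.8 and 156 CPM). A count of 0 allows up to 3 counts, or 0.0269 CPM in WT + AAV-GFP mouse 1.

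Ampd1 had 29 counts in KO + AAV-GFP mouse 1, 3 in WT + AAV-GFP mouse 1 and 0 in the other 10 libraries. Eno3 was at 4.42, 3.50 and 4.49 CPM with AAV-GFP and 4.22, 4.76 and 3.53 CPM with AAV-PRDM16 in WT mice, and at 5.57, 4.52 and 3.62 CPM and 3.49, 5.41 and 2.67 CPM in KO mice, with overlap in each comparison. Phkg1 lay between 0.188 and 1.79 CPM over the 12 mice. The relation to the contractile list passed for Pgam2 (r = 0.86, rho = 0.69, permutation adjusted p = 0.0016) and Pygm (r = 0.74, rho = 0.78, permutation adjusted p = 0.0101). Without those 2 libraries r was 0.64 and 0.54 and passed for neither (permutation adjusted p = 0.127 and 0.264), so both relations rest on them. In 10 of the 12 AAV libraries, over 15 of the 20 contractile genes were under 1 CPM. The list mean there was mostly made of values near the floor, and Pgam2 itself had 0 counts in 6 libraries.

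Of the members that are abundant in BAT, none had AAV groups without overlap. Aldoa averaged 2329 ± 205 CPM with AAV-GFP and 2295 ± 496 CPM with AAV-PRDM16 in WT, and 2269 ± 868 and 1976 ± 651 CPM in KO (SD, n = 3 each). KO + AAV-GFP mouse 3 had the lowest Aldoa (1296.5 CPM), Ldha (459 CPM), Pfkm (55.7 CPM), Gys1 (151 CPM) and Phkg1 (0.188 CPM) of the 12 libraries. Markers of lymphocytes and macrophages summed to 140.1 CPM in it and to between 14.0 and 57.1 CPM in the others, and their part in these values was not tested.

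By edgeR and by DESeq2, 0 of 9 members were called at an FDR of 0.05 in each of the AAV comparisons. Over all genes edgeR called 0.0529% for KO against WT with AAV-GFP, 0.0476% for KO against WT with AAV-PRDM16, and 0% for AAV-PRDM16 against AAV-GFP in WT, for the same in KO and for the interaction. Pygm was the 1 member with an unadjusted p under 0.05, in KO against WT with AAV-GFP, where 9.18% of all genes had one. It was also the 1 member without overlap there, where 6.51% of all genes were higher without overlap, and the 1 without overlap for AAV-PRDM16 against AAV-GFP in KO, where 6.05% were lower.

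Leaving Pgam2 aside, the log2FC of the other tested members lay between -0.33 and 1.17 for KO against WT with AAV-GFP and between -0.22 and 0.11 with AAV-PRDM16. The widest value, 1.17 for Mb, had an SE of 0.71 (edgeR adjusted p = 0.678). For Gys1 and Pfkm the SE was 0.11 and 0.12, so their log2FC of -0.14 and -0.22 with AAV-GFP were measured more closely than those of Mb or Phkg1.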

How the data were processed

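RNA of interscapular BAT was sequenced from 22 mice, and the authors deposited 2 tables of raw read counts per gene, one per cohort. Per the submitters' processing notes, reads were processed with bcl2fastq 2.20, Trimmomatic 0.36 and HISAT2 against GRCm38.p6. The counting tool, its strand setting and its treatment of duplicates and shared reads are not given in the sources used here, so genes with pseudogenes or overlapping exons are uncertain. Library totals were 55320927 to 162721202 counts. Intervals for 0 counts (3 counts) cover counting error only. No 2 libraries of the same group agreed within sampling noise.

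Counts were tested per cohort with edgeR 4.0.16 (quasi-likelihood, TMM scaling, low-count filter, Benjamini-Hochberg adjustment over all genes tested) in R 4.3.3, and with DESeq2 1.42.0, other scaling, no filter, covariates and left-out libraries as alternatives. The scripts were tested on simulated data. CPM and RPKM were computed from the counts and the TMM-scaled library sizes. Correlations used log2 CPM with a prior count of 2 and permutation tests with 100000 resamples. The likeness rule named, per member, the 3 genes with the highest Pearson r. A few isoform and likeness results are not reported here. All members are named, with genes of the pathway lists past the looser rule and the 6 most abundant. The members and lists were chosen with earlier results of these data known. Nothing says whether replicates were separate experiments beyond separate mice. Per-sample columns not mapped to a sample numbered 0.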

Additional observations from a re-analysis of the deposited data

Results flagged for a closer look

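One library stood far from the other 4 of its group. In WT mouse 3 of the untreated cohort Pygm was at 104 CPM (others 3.41 to 6.99), Eno3 at 77.4 CPM (5.73 to 9.07), Pgam2 at 22.7 CPM (0.156 to 1.12), Ampd1 at 17.5 CPM (0.0312 to 0.497) and Mb at 113 CPM (1.23 to 20.7). The contractile list summed to 4155 CPM in the same library (63.1 to 249.7 in the others). Each gap exceeded Dixon's 95% critical value for 5 samples, 0.71 of the range. All 6 of the 6 values so marked among 22 sets tested came from this mouse, and the 6 measures are not independent of each other. The sets were the members and the list sum in the untreated WT and KO groups, since the AAV groups were too small. For normal values chance marks about 1 in 20 sets, but CPM were skewed here, so that rate need not hold. KO mice 1 and 2 were both high in these measures and were not marked, since 2 high values can hide each other.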

How the results depend on the processing

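At an FDR of 0.05, 0 members were called in any of the 6 contrasts under every alternative, one library left out included (range 0 to 0), with a smallest adjusted p of 0.143 for a member in untreated mice. The count of members at least 2-fold apart at an FDR of 0.5, 4 in untreated mice, ranged from 0 to 6 with one library left out, was 0 when WT mice 1 and 2 were dropped, and was 0 in a fit with a term for Y-linked transcripts being present. With one library left out, log2FC in untreated mice ran from 0.91 (without KO mouse 1) to 3.84 (without WT mouse 3) for Pygm and from -0.012 (without KO mouse 5) to 0.39 for Gys1. For Pygm in the AAV cohort it ran from -0.42 to 0.36 for AAV-PRDM16 against AAV-GFP in WT and from -0.22 to 0.56 for KO against WT with AAV-PRDM16, and the former was -0.42 without the 2 AAV libraries richest in contractile transcripts, an alternative added after seeing the data. The number of members related to the contractile list fell from 7 to 2 among the 6 untreated libraries under 4 log2 CPM (added after seeing the data), and from 2 to 0 in the AAV cohort without the 2 farthest libraries, 0 in WT mice and 0 in KO mice. In untreated mice r turned from negative to 0.15 for Aldoa, 0.096 for Gys1 and 0.11 for Ldha without the 2 farthest libraries, and to 0.035 for Aldoa and 0.54 for Gys1 among those 6. The cause was not tested, apart from the fewer libraries in these fits.

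Same-numbered mice showed no clear joint deviation (r of -0.29 to 0.11 over 5 untreated pairs and -0.091 to 0.15 over 18 AAV pairs). A pair of unlike number, WT mouse 5 and KO mouse 3, had r = 0.29. So few pairs cannot show whether the numbers pair mice. With the replicate number as a block, 0 members were called at an FDR of 0.05, 6 passed the looser rule in untreated mice, and Pygm had -0.011 for AAV-PRDM16 against AAV-GFP in WT. In the AAV cohort Pgam2 had 0 counts in 6 libraries and Ampd1 in 10, so neither is given a fold change there.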
